A study of Drosophila melanogaster with 4 samples.

Results

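The genes described here encode the ASAP and PSAP complexes and the core of the exon junction complex in Drosophila melanogaster. They were chosen by symbol: RnpS1, Acn and Pnn for ASAP and PSAP, and tsu, mago, btz and CG7483 for the core. CG7483 is the gene for eIF4A3, also written eIF4AIII. A spot of the array counted when it had a value on at least 1 array of each biological replicate. By this rule 6 of the 7 genes were measured, through 7 spots, among 5757 genes tested through 6021 spots. Acn had 2 spots, the other 5 measured genes had 1 each, and no spot carried the name mago in the annotation used.

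Whole embryos lacking dSAP18 were compared with embryos in which it was put back. Mutant embryos carried dsap18 117, a null allele made by mobilising the P element EP(3)3462, over the deficiency Df(3R)sbd45, which uncovers the gene, in a w1118 background. Control embryos had the same allele, deficiency and background, plus a dsap18-HA transgene. Thus the deficiency is common to both groups, and the control is a rescued mutant and not a wild type. Embryos of both groups were 0 to 24 h old, from flies kept at 25 °C, so each RNA mixes all stages of embryogenesis. There were 2 biological replicates from separate RNA extractions, each hybridised on 2 two-colour arrays with the dyes swapped. Mutant and control RNA shared each of the 4 arrays. The 2 arrays of a replicate carry the same amplified RNA, so n is 2, and no p-value covers more than these 2 extractions. limma takes nearly all of the spread behind each p from the other genes (68.8 prior against 1 residual degree of freedom). The label of 1 control channel of replicate 1 puts the transgene on chromosome 2, while the other 3 arrays, including the dye swap of that same RNA, name the X chromosome.

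The exon junction complex marks spliced messenger RNA. The spliceosome places it just upstream of each new exon junction, where the DEAD-box ATPase eIF4A3 clamps the RNA, the mago and tsu (Y14) heterodimer locks that clamp, and btz (Barentsz) binds from the side. ASAP is a peripheral complex of RnpS1, Acn (Acinus) and SAP18, and in PSAP the protein Pnn (Pinin) takes the place of Acn. The protein missing from the mutant is thus a partner of the products of the first 3 genes. In the fly, the core proteins are needed to localise osk mRNA in the oocyte, and core and ASAP proteins are needed for correct splicing of the piwi transcript.

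Each value below is a log ratio between the 2 channels as the authors deposited it, read here as log2, and it gives no transcript level, so genes cannot be ranked by abundance. The direction of the ratio is not stated. Mutant over control is likely, since the design text names the mutant embryos first and speaks of a sample set against a reference. A positive value then means more transcript in the mutant. If the direction is the opposite, every sign turns, positive and negative counts and shares change places, ranks run from the other end, and sizes and the number of genes past the test stay. No spot was named for Bin1, the current symbol of dsap18, so the targeted gene could not check the labels. In whole-embryo RNA a change in cell or stage composition cannot be told apart from a change of RNA per cell, and the ratios give no level by which to check the labelled tissue.

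The 3 ASAP and PSAP genes had positive ratios on every array that measured them, between 1.21 and 1.31-fold on average, and none passed the test over all genes. The 3 measured core genes lay closer to 0, between 1.03 and 1.12-fold. A gene passed at a limma adjusted p under 0.05 (Benjamini-Hochberg over the 5757 genes). In the background, 22.9% of genes passed, 11.2% with a positive and 11.7% with a negative ratio, and no gene with a ratio under 0.41 in size passed. Of the 6 members 0 passed in limma, while RnpS1 and Pnn had an unadjusted p under 0.05, as did 35.1% of all genes.

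RnpS1 encodes an RNA-binding protein that joins ASAP and PSAP to the spliced message. Its single spot (NCBI gene 41147) read 0.34 with the mutant in Cy3 and 0.11 with the mutant in Cy5 in replicate 1, and 0.68 and 0.44 in replicate 2. All 4 arrays were positive, replicate 2 was higher than replicate 1 in both orientations, and the arrays with the mutant in Cy3 were higher in both replicates. The mean log2 ratio was 0.39 ± 0.24 (SD, n = 2), with a 95% interval from limma of 0.077 to 0.71 and a limma adjusted p = 0.0628. Adjusted p-values for RnpS1 ran from 0.0178 to 0.557 over the alternative fits, and it passed in 4 of them. RnpS1 had the highest ratio of the members, above 87.7% of all genes, or the lowest, above 12.3%, if the ratio runs the other way.

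Pnn (NCBI gene 41185) encodes the Pinin protein that defines PSAP. It read 0.23 and 0.35 in replicate 1 and 0.44 and 0.43 in replicate 2, in each case with the mutant in Cy3 first. The values of the swapped arrays lay close together in replicate 2 and differed by 0.13 in replicate 1. Replicate 2 was again above replicate 1. The mean was 0.36 ± 0.10 (SD, n = 2), with an interval of 0.048 to 0.68 and a limma adjusted p = 0.0856. Over the alternatives its adjusted p ran from 0.0089 to 0.557, and it too passed in 4.

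Acn (NCBI gene 35173) encodes Acinus, the scaffold of ASAP. Its first spot read 0.27, 0.29, 0.34 and 0.27 over the 4 arrays and was the steadiest of all member spots. The second spot read 0.057 and 0.17 in replicate 1 and 0.39 on the one array of replicate 2 that had a value, with the mutant in Cy5. Both spots were positive wherever measured, and the second differed more between replicates. Averaged by gene, Acn was at 0.27 ± 0.11 (SD, n = 2), with an interval of -0.043 to 0.59 and a limma adjusted p = 0.212, and with replicate 2 of the second spot resting on that single array. Counted over both complexes, 15 of 15 values of ASAP and PSAP spots were positive. These values share 2 RNA extractions and include 2 spots of Acn, so they are not independent. The mean ratio was positive for 51.5% of all genes, and 32.6% of genes with 4 values were positive on all 4 arrays.

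**Figure D1:**
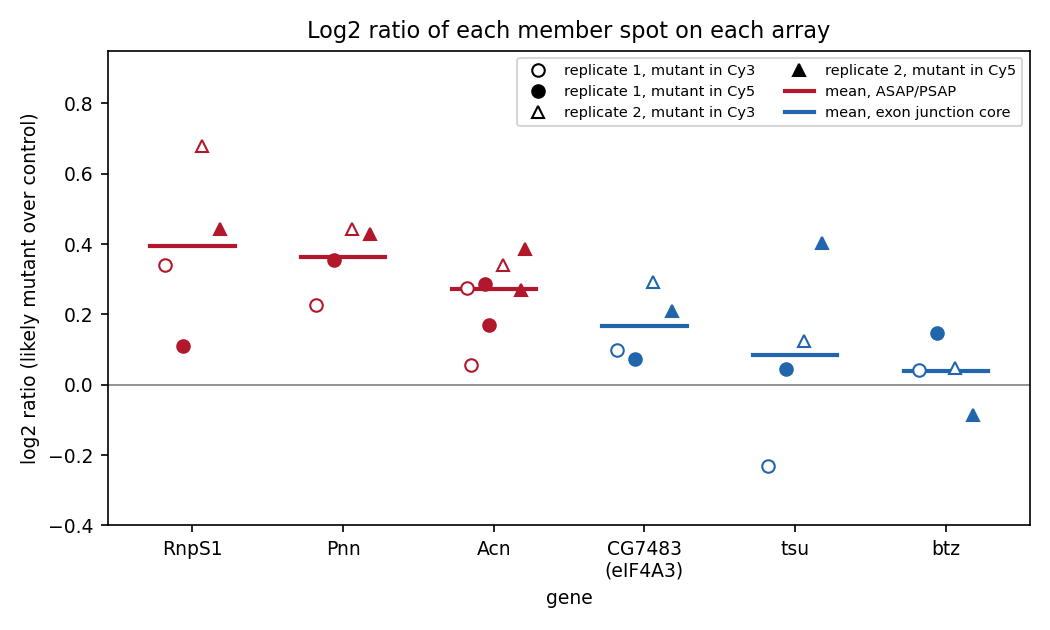
Log2 ratio of every member spot on each array (y axis) by gene (x axis), with circles for replicate 1, triangles for replicate 2, open symbols for the mutant in Cy3 and filled ones for the mutant in Cy5; a line marks the gene mean. All values of RnpS1, Pnn and Acn are above 0, while tsu and btz each have 1 array below 0.

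Among the core genes, CG7483 encodes the helicase eIF4A3 that holds the RNA. It read 0.098 and 0.074 in replicate 1 and 0.29 and 0.21 in replicate 2, with the mutant in Cy3 first. All 4 arrays were positive, and both of replicate 2 were above both of replicate 1. CG7483 (NCBI gene 40987) had a mean of 0.17 ± 0.12 (SD, n = 2), with an interval of -0.15 to 0.48 and a limma adjusted p = 0.47.

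tsu (NCBI gene 35924) encodes Y14, a subunit of the heterodimer that locks the clamp. It read -0.23 with the mutant in Cy3 and 0.045 with the mutant in Cy5 in replicate 1, and 0.12 and 0.40 in replicate 2. The sign differed between the swapped arrays of replicate 1, and the 4 values spread more widely than those of any other member spot. The mean was 0.086 ± 0.25 (SD, n = 2), with an interval of -0.23 to 0.40 and a limma adjusted p = 0.738. Its mean was -0.093 in replicate 1 alone and -0.053 over the arrays with the mutant in Cy3.

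btz (NCBI gene 43331), the gene for the core subunit Barentsz, read 0.041 and 0.15 in replicate 1 and 0.048 and -0.085 in replicate 2. These values lay around 0 in both replicates. The mean was 0.038 ± 0.080 (SD, n = 2), with an interval of -0.28 to 0.35, a limma adjusted p = 0.886, and -0.019 in replicate 2 alone. Over the 3 core genes 10 of 12 values were positive, again on arrays that share 2 RNA extractions.

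The place of each member among all genes is easier to compare by rank, since ratios were wider in replicate 2 (SD over genes 0.48) than in replicate 1 (0.28). Pnn lay above 85.0% of genes in replicate 1 and 83.3% in replicate 2, Acn above 75.7% and 77.8%, and RnpS1 above 78.3% and 89.3%. With the ratio turned these would be 14.97% and 16.7% for Pnn, 24.3% and 22.2% for Acn, and 21.7% and 10.8% for RnpS1. CG7483 lay above 61.6% and 70.9% of genes, tsu above 37.0% and 72.1%, and btz above 62.8% and 46.3%. RnpS1 and tsu differed most between replicates, by 0.34 and 0.36 in log2 ratio, against a median of 0.22 over all genes. Ratios were positive in both replicates for 4 of the 6 members (RnpS1, Pnn, Acn and CG7483), against 40.3% of all genes. Of the genes with values on all 4 arrays, 32.6% were positive on each of them.

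**Figure D2:**
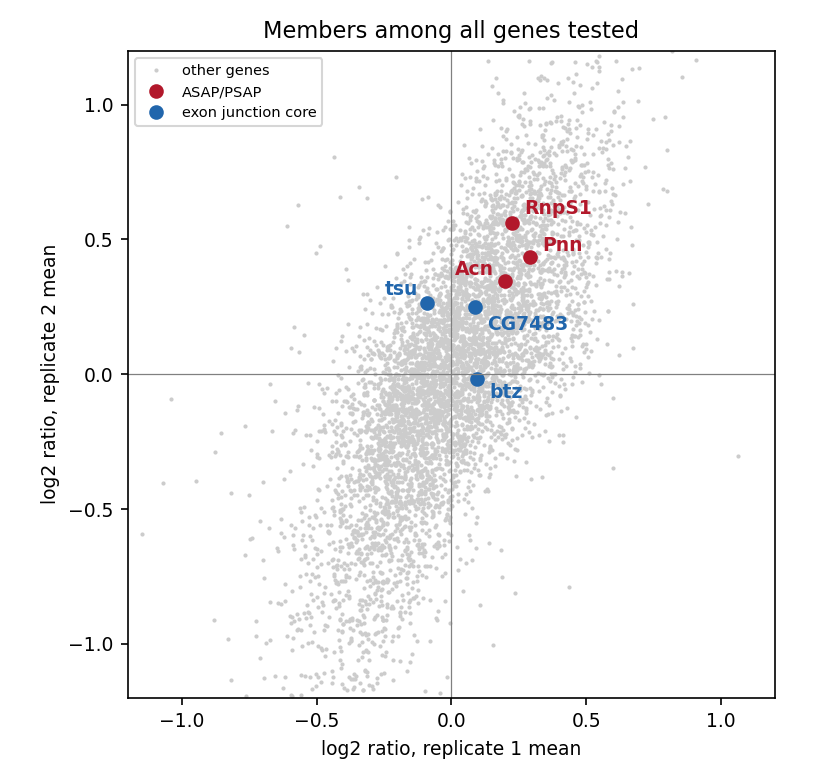
Mean log2 ratio of each gene in replicate 1 (x axis) and replicate 2 (y axis); grey points are the other genes, red points ASAP and PSAP genes and blue points core genes, and 103 genes outside the axis limits of 1.2 are not drawn. RnpS1, Pnn, Acn and CG7483 are above 0 in both replicates, within the spread of the other genes. tsu is left of 0 in replicate 1 and btz just under 0 in replicate 2.

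Set against the core, the ASAP and PSAP genes had the higher ratios in both replicates. Their mean was 0.24 in replicate 1 and 0.45 in replicate 2, against 0.029 and 0.17 for the core genes. The ASAP/PSAP minus core difference was 0.21 in replicate 1 and 0.28 in replicate 2, or 0.25 ± 0.053 (SD, n = 2). This SD rests on 2 values and leaves out the error of each gene. The limma standard error of each member's ratio was near 0.16, and the members' 95% intervals overlapped. Array by array, with the first Acn spot alone, the difference was larger with the mutant in Cy3 (0.31 and 0.33) than in Cy5 (0.16 and 0.20). The replicate values above use both Acn spots, so the array values do not average to them. The difference was not tested, because the members were chosen with results of these data known. An exact two-sided permutation test over 2 replicates could not go below 0.5. The median ratio of the ASAP and PSAP genes was 0.36 and that of the core genes 0.086, beside 0.015 over all genes.

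Ordered by mean ratio, the members ran RnpS1, Pnn, Acn, CG7483, tsu, btz, and several neighbours in this order could not be separated. RnpS1 minus Pnn was -0.065 in replicate 1 and 0.13 in replicate 2. Pnn was above Acn by 0.092 and 0.089 in the 2 replicates, but by 0.0088 and 0.13 with the first Acn spot alone, where the SD of 0.086 exceeds the mean of 0.069. Acn was above CG7483 by 0.11 and 0.096, or by 0.20 and 0.055 with that spot alone (mean 0.13, SD 0.099). CG7483 against tsu and tsu against btz changed order between replicates.

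Swapped arrays of a replicate hold the same RNA, so their difference holds the dye orientation and the error of single arrays. Within a replicate these cannot be told apart. For tsu the array with the mutant in Cy5 was higher by 0.28 in both replicates, and for RnpS1 it was lower by 0.23 and 0.24. The size of the mean difference exceeded that of 91.8% of genes for tsu and 86.8% for RnpS1, over the 4313 genes with values on all 4 arrays, where its median size was 0.10. For Pnn and btz the sign of this difference changed between replicates, and for CG7483 (-0.024 and -0.082) and the first Acn spot (0.013 and -0.072) it was small. Across those 4313 genes the differences of the 2 replicates had a Pearson r of 0.495, given as a description over genes that share arrays and amplified RNA. The mean ratio of a spot averages both orientations evenly only where all 4 arrays had a value. In replicate 2 the second Acn spot rests on the array with the mutant in Cy5 alone.

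eIF4A, the translation initiation helicase that is the paralog of eIF4A3, is no member, but its 17 spots show how far repeated spots of that gene scatter. The first and second Acn spots read 0.27 and 0.057 with the mutant in Cy3 and 0.29 and 0.17 with the mutant in Cy5 in replicate 1. In replicate 2 they read 0.27 and 0.39 with the mutant in Cy5. The spot values of eIF4A had an SD of 0.028 with the mutant in Cy3 and 0.034 with the mutant in Cy5 in replicate 1, and of 0.074 with the mutant in Cy3 and 0.045 with the mutant in Cy5 in replicate 2. eIF4A was higher with the mutant in Cy5 by 0.31 in replicate 1 and 0.30 in replicate 2, much like tsu. Its mean ratio was 0.11 ± 0.076 (SD, n = 2), and it did not pass (limma adjusted p = 0.667). The spots of CG7483 and eIF4A had opposite signs of the swap difference.

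**Figure D3:**
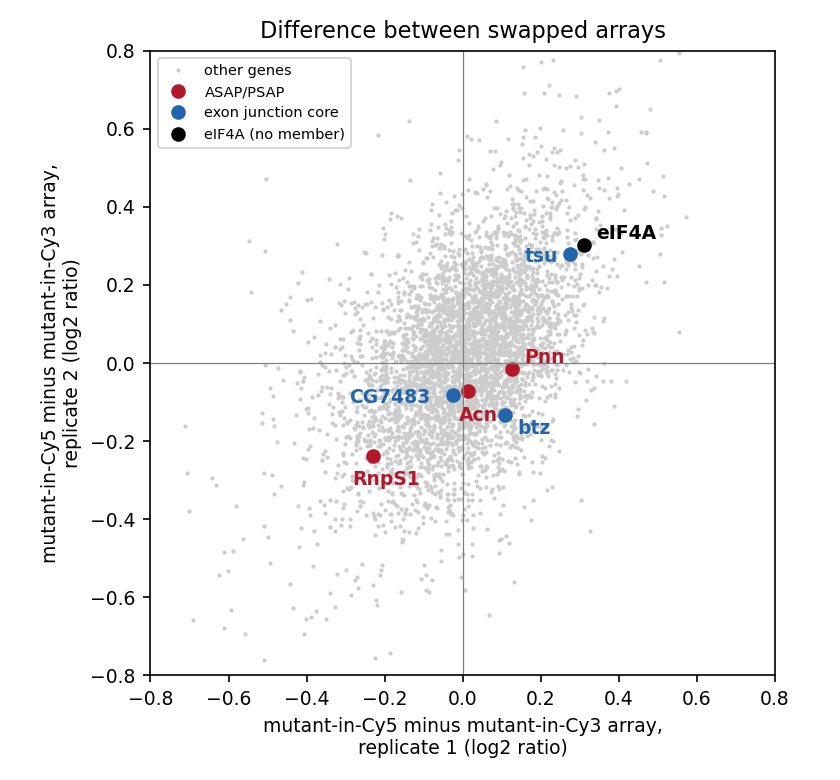
Log2 ratio with the mutant in Cy5 minus that with the mutant in Cy3, in replicate 1 (x axis) and replicate 2 (y axis), for genes with values on all 4 arrays; 18 genes beyond the axis limits of 0.8 are not drawn. tsu and eIF4A lie near 0.3 on both axes and RnpS1 near -0.2 on both, while the other members are closer to 0 on at least 1 axis.

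Genes that place, use or remove the exon junction complex were described beside the members, from lists chosen by known function. Of 5 recruiters and partners all were measured and all had positive ratios, with a median of 0.31, and 2 rose. Over all genes 11.2% passed with a positive and 11.7% with a negative ratio. The lists are small and were not tested against these shares. Hel25E, the UAP56 helicase that acts in splicing and mRNA export, was at 0.52 in replicate 1 and 0.89 in replicate 2 (mean 0.71, 1.63-fold, limma adjusted p = 7.69e-04). Pym, which takes the complex apart, was at 0.11 and 0.79 (mean 0.45, limma adjusted p = 0.0352), so that the replicates differed by more than the mean. The call on Pym was lost with the replicate block (limma adjusted p = 0.0514), a dye term (0.0786) or the mutant in Cy3 only (0.0761), within a range of 0.014 to 0.587 over the alternatives. The recruiter ncm (0.31, on 3 arrays), the fly CWC22 protein, and Ref1 (0.28), the export adaptor Aly, did not pass. SRm160, a splicing coactivator now named Srrm1, was lowest at 0.18, on 3 arrays.

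The list of THO/TREX and export genes had 8 of 10 members measured, which include Hel25E and Ref1, and a median of 0.35. Counts of this list and of the SR protein genes stand beside 11.2% of all genes passing with a positive ratio. Of these 3 rose and none fell: Hel25E, the export receptor subunit gene Nxt1 (0.37 and 0.87, mean 0.62, limma adjusted p = 0.0030) and the THO subunit gene thoc7 (0.31 and 0.68, mean 0.49, limma adjusted p = 0.0183, with a value on 3 arrays). The THO genes Hpr1 (0.33), thoc6 (0.34) and thoc5 (0.37, on 2 arrays) had values near those of RnpS1 and Pnn and did not pass, and the lowest was tex at -0.049. Of 9 SR protein genes, which encode splicing regulators, 4 were measured and 1 rose, SF2, at 0.37 and 0.78 (mean 0.57, limma adjusted p = 0.0058), while SC35 was lowest at -0.018. The calls on Hel25E, Nxt1, thoc7 and SF2 held in each alternative fit in which the gene was tested except the one without moderated variance, where no gene passed.

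Nonsense-mediated decay, the surveillance pathway that reads exon junction complexes left downstream of a stop codon, had 2 of 6 genes measured and none passed. Smg6, its endonuclease, was at -0.28, and Upf3, which binds the complex, at 0.025 on 2 arrays. Of 5 genes of eIF4A, its partners and cap binding none passed, with Cbp20 at 0.37 and eIF4G1 at -0.31 as the extremes. Of the transcripts known to need the complex, piwi was at 0.22 on 3 arrays and osk at 0.16, and neither passed. The spots do not tell spliced from unspliced transcripts.

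**Figure D4:**
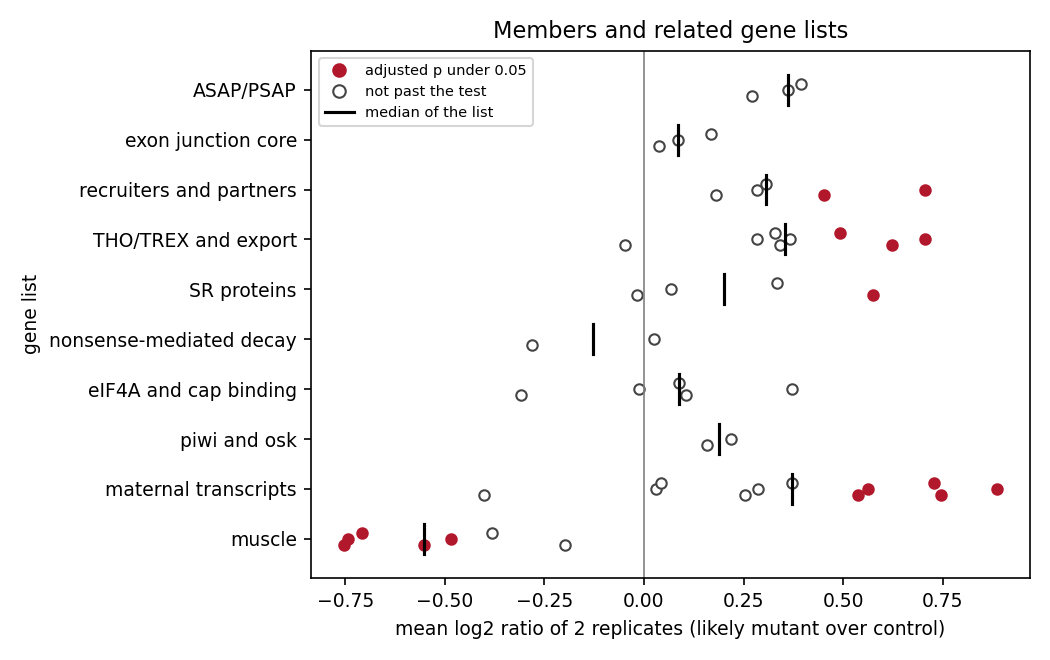
Mean log2 ratio over 2 replicates (x axis) of each measured gene, by list; filled points passed at a limma adjusted p under 0.05, open points did not, and the black line is the median of the list. ASAP and PSAP genes have a median of 0.36, core genes 0.086, maternal transcripts 0.37 and muscle genes -0.55.

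Some maternal transcripts rose and some muscle transcripts fell in the same RNA, where 11.2% of all genes passed with a positive and 11.7% with a negative ratio. Of 14 maternal transcripts 11 were measured, with values from -0.40 (tud) to 0.89 (plu). Their median was 0.37, or 0.36 over replicate 1 alone and 0.55 over replicate 2 alone. Among them 5 rose (plu, twe, swa, bcd and CycB) and none fell, and CycB was not called with the mutant in Cy5 only (limma adjusted p = 0.0739, in a range of 0.00097 to 0.557 over the alternatives). Of 12 muscle genes 7 were measured, all with negative ratios, between -0.75 (Tm2) and -0.20 (up, on 2 arrays). Their median was -0.55, and by replicate it was -0.25 for the first and -0.95 for the second. Of these 5 fell (Tm2, TpnC73F, Mlc2, Mlc1 and Prm), and with a dye term Mlc1 and Prm were not called (limma adjusted p = 0.0731 and 0.0704, in ranges of 0.0023 to 0.587 and 0.0077 to 0.578). The part of stage composition in the members' ratios was not tested.

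For each member the gene with the most similar values was found as the one with the smallest root mean square difference of log2 ratios over the 4 arrays, among the 4313 genes. RnpS1 was matched by CG11444 (difference 0.031), Pnn by the odorant receptor gene Or19a (0.025) and the first Acn spot by CG14641 (0.022). CG7483 was matched by mms4 (0.022), tsu by the mitochondrial ribosomal protein gene mRpL11 (0.029) and btz by the gap gene hb (0.031). In no case was the nearest gene another member. With so few members among 4313 genes, this does not tell whether the members moved together.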

How the data were processed

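Total RNA (1.5 µg a sample) was amplified and labelled through amino-allyl groups, per the labels' protocols. The deposited table holds 1 log ratio, taken as log2, per spot and array. limma is named, without its version, in the submitters' processing notes. How background was corrected, how arrays were normalized and why spots were left empty is not given in the sources used here. Arrays had 6537 to 7976 values of 16416 spots, with medians near 0. All 4 columns correlated positively, so no sign was turned. Spot intensities were not used here. Precision is limited by the 2 RNA extractions. In all, 13164 spots had 1 gene symbol and 101 had several.

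Available arrays were averaged within a replicate, then spots within a gene, and the 2 replicate means were tested against 0 (limma 3.58.1, R 4.3.3, lmFit and eBayes, two-sided, 1 residual and 68.8 prior degrees of freedom). The script was tested on simulated data. Symbols were updated by NCBI gene ID, and 71 of 72 list entries matched. All members were named, with the called, highest and lowest genes of each list. Members and lists were chosen with earlier results of these data known.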

Additional observations from a re-analysis of the deposited data

How the results depend on the processing

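The count of members past the test changed between fits, which differ in the spread, arrays, spots or genes used. It was 0 in the main fit, on spots with all 4 arrays, with the mutant in Cy5 only, with median centring, with a robust prior, without moderation and spot by spot. It was 3 with the 4 arrays as independent and 3 with a dye term (RnpS1, Pnn and Acn in both), 2 with equal spread of arrays (RnpS1 and Pnn), 1 with the replicate as a random block (Pnn) and 1 with the mutant in Cy3 only (RnpS1). The first and second of these settings take arrays of the same RNA as separate samples. Like the replicate block, they leave out the second Acn spot, which was empty on 1 array. Acn there is its first spot alone, at 0.29 against 0.27 in the main fit. Over all genes 1319 of 5757 passed in the main fit, against 2068 of 4313 with independent arrays and 1572 of 4313 with a dye term. Equal spread gave 1928 of 5757, the replicate block 1092 of 4313 and the mutant in Cy3 only 960 of 5155. Without moderation 0 of 5757 passed, where 462 had an unadjusted p under 0.05. RnpS1, Pnn, Acn and CG7483 kept a positive ratio in every alternative run. tsu turned to -0.053 with the mutant in Cy3 only and to -0.093 without replicate 2 (0.26 without replicate 1), and btz to -0.019 without replicate 1 (0.095 without replicate 2). Leaving out a replicate put the core median between 0.086 and 0.25, that of ASAP and PSAP between 0.22 and 0.44, and their difference between 0.21 and 0.28. The difference was 0.18 with the mutant in Cy5 only, with both Acn spots, and 0.32 with the mutant in Cy3 only, with the first Acn spot alone. The cause was not tested. Each ratio already pairs mutant and control RNA on 1 array.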
